A study of Mus musculus with 20 samples.

Results

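The genes of inositol phosphate and phosphoinositide metabolism were described in the hippocampus of aged mice that carry human APOE. The set holds 41 of the 33119 genes in the deposited table and follows the enzymes' function. No value of these data is in the rule, but earlier results of these data were known when the set was chosen. It holds 10 phospholipases C, 12 phosphoinositide kinases, 8 phosphoinositide phosphatases, 5 inositol phosphate kinases and 4 inositol phosphate phosphatases. Isyna1 and Cdipt, which make inositol and phosphatidylinositol, complete it. All 41 passed the filter on low counts and were among the 21724 genes tested. Bulk RNA of 20 hippocampi was sequenced, 1 mouse per library, and the 4 groups of 5 mice were the males and the females of either allele, called hAPOE3 and hAPOE4. All were C57BL/6 mice aged 16 months and homozygous for a targeted replacement of the mouse Apoe gene by the human allele, so no group carried mouse Apoe and none was without human APOE. Whether mice shared litters or cages is not given in the sources used here. The design asks how the genes differ by APOE allele, by sex, and whether the difference by allele depends on sex.

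Phosphatidylinositol is a membrane lipid whose head group is phosphorylated at several positions by lipid kinases and trimmed again by lipid phosphatases. Receptors coupled to Gq, such as group I metabotropic glutamate and muscarinic receptors in the hippocampus, activate phospholipase C, which cuts phosphatidylinositol bisphosphate into diacylglycerol and inositol trisphosphate, the messenger that releases calcium from the endoplasmic reticulum. Inositol kinases and phosphatases then build higher inositol phosphates or return inositol to the pool, a step blocked by lithium, and the same membrane lipids steer synaptic vesicle recycling, endosome identity and autophagy.

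Between 35778879 and 52520279 counts (median 42963466) were assigned per mouse, and values are given as CPM, counts scaled to a common library size after TMM normalisation. Markers of neurons, astrocytes, oligodendrocytes, microglia and endothelium were all detected, as were all 9 genes of the hippocampal neuron list, with none of these genes at 0 in all mice. Some libraries stood apart. In 3 males, S158 of hAPOE3 and S176 and S178 of hAPOE4, the 7 thalamus markers summed to 596 to 717 CPM against 161 to 234 CPM in the other 17 mice, and the list score, the mean of log2 CPM centred on each gene, was 1.40 to 1.75 against -0.54 to -0.0086. In the same 3 males the hippocampal neuron score was -0.64 to -0.47 against -0.35 to 0.47. In 5 hAPOE3 mice, S147 and S148 of the females and S156, S157 and S158 of the males, the score of 87 nuclear genes of oxidative phosphorylation (OXPHOS) was 0.30 to 0.41 and the astrocyte score -0.30 to -0.10, against -0.31 to -0.18 and 0.014 to 0.16 in the other 5 hAPOE3 mice. S158 belongs to both sets. The OXPHOS score of hAPOE4 mice was -0.15 to 0.017 in males and -0.13 to 0.033 in females. Those 5 hAPOE3 mice thus scored above all hAPOE4 mice and the other 5 hAPOE3 mice below them. The row named Apoe, the replaced mouse gene, held 37.4 to 79.9 CPM in hAPOE3 and 52.97 to 98.9 CPM in hAPOE4 mice. In 4 of the 5 hAPOE4 males, S175 to S178, the oocyte list summed to 69.01 to 136 CPM against 1.65 to 2.95 CPM in the other 16 mice, so these markers move with the hAPOE4 male group, and 4 of the list's genes passed the test in hAPOE4 against hAPOE3 males and between the sexes in hAPOE4. Choroid plexus markers summed to 78.6 to 6542 CPM over the 20 mice, with medians of 130.1 CPM in hAPOE3 and 161 CPM in hAPOE4 males and 2708 CPM in hAPOE3 and 4645 CPM in hAPOE4 females. All 10 of them were higher in females averaged over the genotypes (median log2 fold change 1.54), and 0 passed the edgeR test, with 6 at an unadjusted p under 0.05. The part of either list in the member values was not tested. The mitochondrial genome gave 7.92% to 11.4% of counts in hAPOE3 (median 9.72%) and 6.47% to 9.31% in hAPOE4 mice (median 7.90%). Where this share is used as a covariate below, it can therefore take up part of a difference by allele. In bulk tissue, fewer cells of a type and less RNA per cell cannot be told apart.

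Per kilobase of the longest coding transcript, 3 members stood at the top. Itpka, an inositol trisphosphate kinase concentrated in dendritic spines, was at a median of 77.0 CPM per kb over the 20 mice (range 44.4 to 106), Pip5k1c, the main synaptic kinase that makes phosphatidylinositol bisphosphate, at 71.8 (50.1 to 88.7), and Synj1, the phosphatase that clears this lipid from recycling synaptic vesicles, at 70.3 (40.4 to 89.6). Their ranges overlapped almost wholly, so the order among these 3 was within the spread between mice. Cdipt, the phosphatidylinositol synthase, followed at 41.5 (35.7 to 49.5), and then Pip4k2a, Plcb1, Pip4k2b and Inpp4a at medians of 24.5 to 27.6 with overlapping ranges. Plcb1, the Gq-activated phospholipase C of forebrain neurons, was at 27.6 CPM per kb (14.9 to 33.8). Plcb4 at 6.58 (5.05 to 25.9) was the next of the beta isoforms, Plcb3 was at 4.17 (3.33 to 6.01) and Plcb2 at 0.643 (0.462 to 0.810), and the ranges of Plcb1 and Plcb2 overlapped with none of the other beta isoforms except that of Plcb1 with Plcb4. At the bottom stood Plcg2, known from microglia and B cells, at 1.601 (1.35 to 1.85), Inpp4b at 1.58 (0.908 to 2.40), Plcb2, and Impa2, the minor inositol monophosphatase, at 0.475 (0.352 to 1.01). Impa1, which carries out the same reaction, was at 16.0 (14.1 to 18.5). Exons of 16 of the 41 members overlap another annotated gene. Among them are Synj1, Cdipt and Plcb1, with a gene on the opposite strand, and Impa1, with a gene on the same strand. The levels were not corrected for this, nor for which transcript of a gene was in use.

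**Figure D1:**
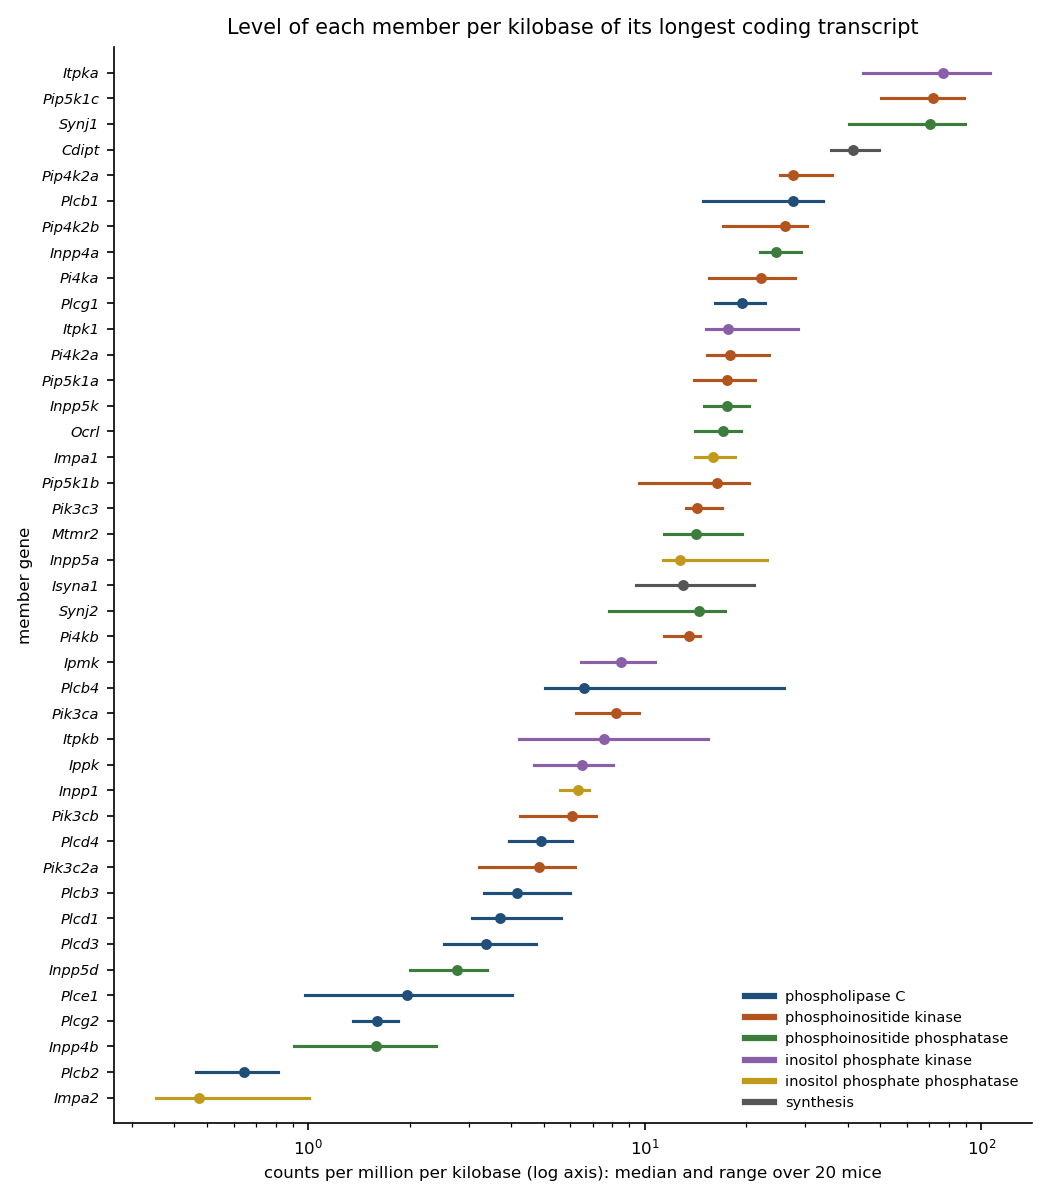
CPM per kilobase of the longest coding transcript (log axis) for the 41 members, ordered by mean, with the median (point) and the range (line) over 20 mice and colour by role. Itpka, Pip5k1c and Synj1 lie at medians of 70.3 to 77.0, and Plcb4 has the longest line, from 5.05 to 25.9.

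Averaged over the sexes, 1 of the 41 members passed the test between hAPOE4 and hAPOE3 (edgeR quasi-likelihood test, Benjamini-Hochberg adjusted p under 0.05 over all genes tested). It was Synj2, which was higher in hAPOE4, while 2.45% of all genes passed. At an unadjusted p under 0.05 there were 5 members, Synj2, Plce1, Itpkb, Plcd4 and Plcb3, all higher in hAPOE4, where 17.9% of all genes lay under that value and 8.24% lay under it and were higher. The 5 members are fewer than 17.9% of 41 would give and more than 8.24% of 41 would give. Of the 41 members, 32 were higher in hAPOE4, 78.0% against 50.3% of all genes, with a median log2 fold change of 0.073 against 0.0016. That count depended on the mice and the fit: it was 24 without the 5 hAPOE3 mice with high OXPHOS genes and 23 with the mitochondrial share as a covariate.

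Within the sexes no member passed. In males 0 of 41 passed, against 0.621% of all genes, and 3 (Synj2, Plce1 and Itpkb) had an unadjusted p under 0.05, all higher in hAPOE4. Of all genes 9.06% lay under that value in either direction, and 978 of 21724 lay under it and were higher. In females 0 passed, against 0.667%, and only Synj2, higher in hAPOE4, had an unadjusted p under 0.05. There 10.1% of all genes lay under that value in either direction, and 776 of 21724 lay under it and were higher. DESeq2 and limma voom called 0 members in both. Members higher in hAPOE4 numbered 30 in males and 30 in females, 73.2% in each against 50.3% of all genes. Of the members 24 were higher in both, and 5 (Plcd1, Pip4k2a, Inpp5a, Ippk and Cdipt) were lower in both. The share of all genes higher in both was not computed. With 1 mouse left out the count was 27 to 33 in males and 27 to 34 in females, and 22 to 32 in each over the other alternative fits. The interaction of sex and APOE called 0 members, with 0 at an unadjusted p under 0.05, against 0.184% and 2.54% of all genes, and DESeq2 and limma voom also called 0. The 95% intervals give the precision: averaged over the sexes they lay within a 1.5-fold change either way for 37 of 41 members, all but Plcb4, Plce1, Synj2 and Itpkb, and for 33 in males, 36 in females and 28 for the interaction.

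**Figure D2:**
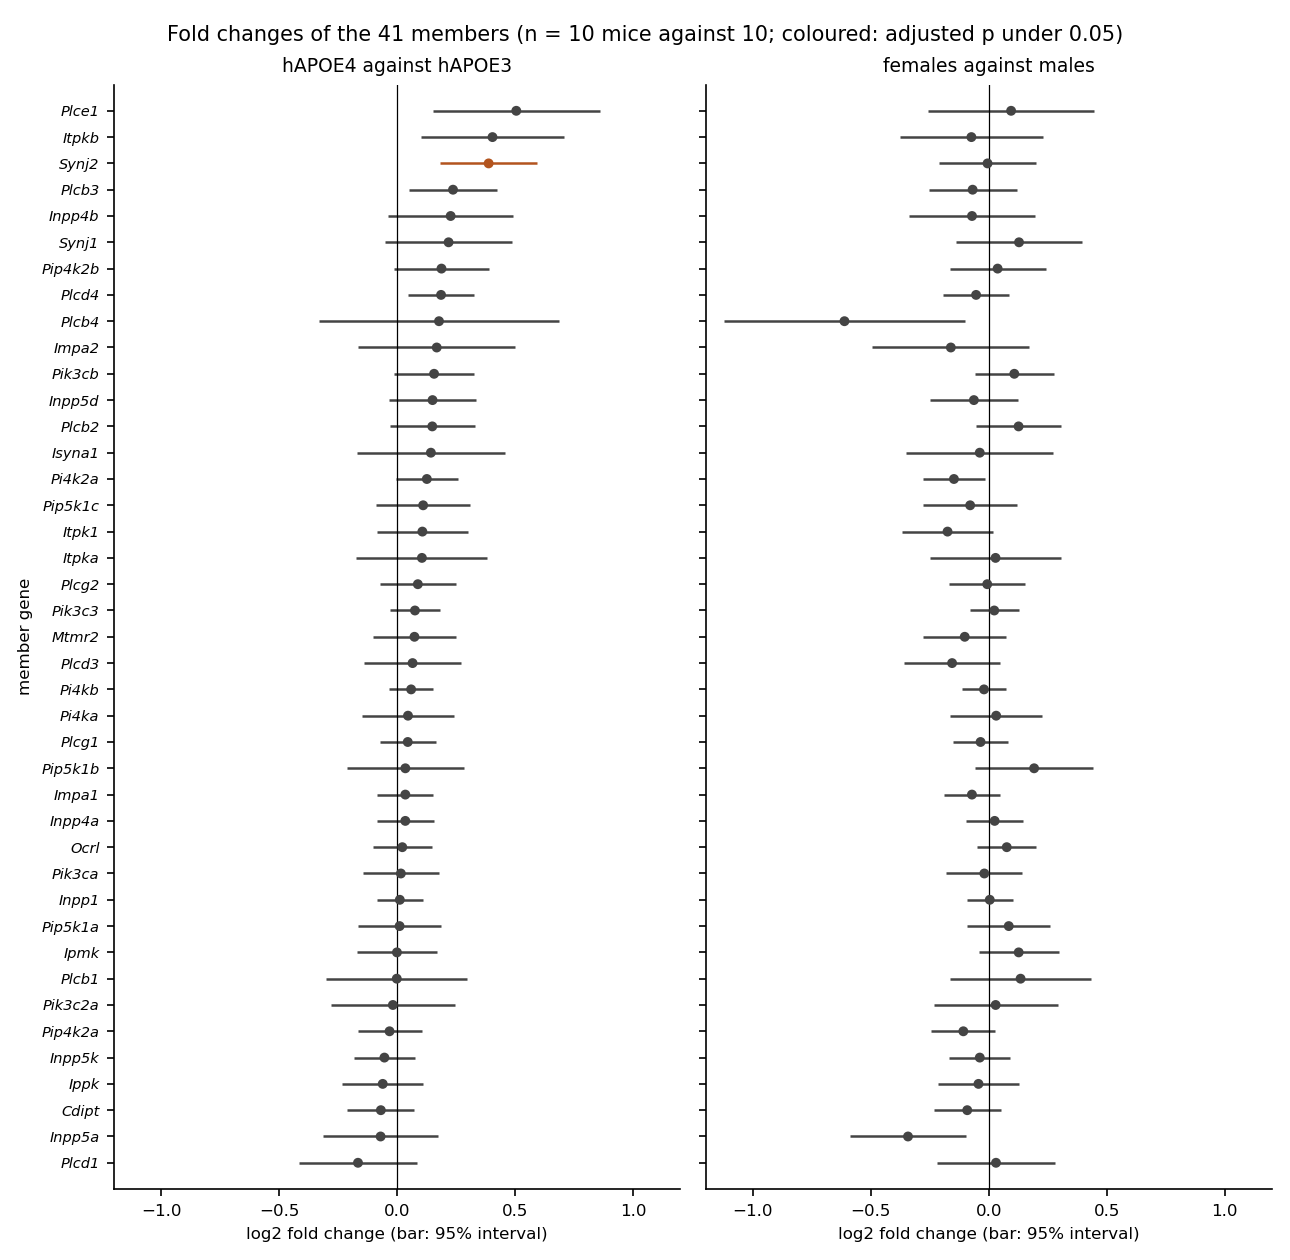
Log2 fold change (point) and 95% interval (line) of each of the 41 members from the edgeR fit, for hAPOE4 against hAPOE3 averaged over the sexes (left) and females against males averaged over the genotypes (right), ordered by the left panel. Only Synj2, at 0.39, is coloured as past the threshold, and Plcb4 at -0.61 and Inpp5a at -0.34 lie lowest in the right panel.

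Synj2 encodes synaptojanin 2, a lipid phosphatase related to the nerve-terminal enzyme Synj1 that acts on phosphatidylinositol bisphosphate in endocytosis. The level of Synj2 was 75.9, 75.6, 65.2, 60.8 and 56.8 CPM in hAPOE3 males and 97.7, 87.7, 85.5, 86.4 and 83.5 CPM in hAPOE4 males. Among females the values were 76.01, 75.7, 88.1, 51.8 and 44.4 CPM with hAPOE3 and 93.3, 80.03, 85.7, 84.6 and 92.1 CPM with hAPOE4. All 10 hAPOE4 values, 80.0 to 97.7 CPM, were above 9 of the 10 hAPOE3 values, the exception being female S146 at 88.1. The group means were 66.9 ± 8.64 (SD, n = 5) in hAPOE3 and 88.2 ± 5.55 in hAPOE4 males, and 67.2 ± 18.3 in hAPOE3 and 87.1 ± 5.52 in hAPOE4 females. The difference was 1.31-fold averaged over the sexes (log2 0.39 ± 0.099, 95% interval 0.18 to 0.59, edgeR quasi-likelihood adjusted p = 0.0418). After a log2 fold change, ± gives the standard error (SE) here and below. In males the log2 fold change was 0.40 ± 0.14 (adjusted p = 0.349) and in females 0.38 ± 0.14 (adjusted p = 0.311), and they differed by -0.024 with an interval of -0.44 to 0.39.

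The size of the Synj2 difference depended on which hAPOE3 mice were counted. The 5 hAPOE3 mice with high OXPHOS genes were at 44.4 to 65.2 CPM and the other 5 at 75.6 to 88.1. Without the first 5, a choice made after the data were seen, the log2 fold change was 0.17 ± 0.058 with an adjusted p of 0.183 (edgeR), and with the OXPHOS score as a covariate it was 0.30 ± 0.060 with an adjusted p of 0.00976. No fit left out the other 5 as a set, although their OXPHOS scores were below those of every hAPOE4 mouse. The call was lost when any of 14 mice was left out (the 5 hAPOE3 mice with high OXPHOS genes, and every hAPOE4 mouse but S178), at adjusted p values of 0.0556 to 0.0944, and with the mitochondrial share as a covariate, at a log2 fold change of 0.18 and an adjusted p of 0.807. That share itself differed by allele, so the share and the allele cannot be fully told apart in that fit. The call was also lost under limma voom (0.32, adjusted p = 0.0540) and without the 3 males with high thalamus markers (0.38, adjusted p = 0.104). The same held with the oocyte (0.47, adjusted p = 0.108), thalamus and striatum (0.31, adjusted p = 0.147) or astrocyte scores (0.27, adjusted p = 0.132) as covariates. DESeq2 kept the call, at a log2 fold change of 0.39 (Wald test adjusted p = 0.012). Without the 4 hAPOE4 males with high oocyte genes, where the 1 hAPOE4 male left is assumed to vary like the other groups, it was 0.47 ± 0.15 (adjusted p = 0.266). The part of these measures in the result was not tested. Exons of Synj2 overlap Serac1 on the opposite strand, and whether the counting used strand is not given in the sources used here. Serac1 itself was at 18.7 to 32.0 CPM, with a log2 fold change of 0.25 ± 0.090 (adjusted p = 0.146).

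The sequence before the first RefSeq start of Synj2 is shown because it is the single member that passed, with the 250 bases upstream of the start in the GRCm38.p6 build at chr17:5975330-5975579 on the plus strand of chromosome 17 and clear of annotated exons. Searched on both strands were the GC box GGGCGG, the E-box CACGTG, the cyclic AMP response element TGACGTCA, the AP-1 site TGAGTCA, the CCAAT box CCAAT and the TATA box TATAAA, where neighbouring GC boxes may overlap. The window holds none of these letters and 5 CG pairs. In GENCODE the gene spans 5941280 to 6044290 on this strand, so the window lies inside it, before an internal start. Its letters do not describe the sequence before the annotated beginning of the gene.
Synj2: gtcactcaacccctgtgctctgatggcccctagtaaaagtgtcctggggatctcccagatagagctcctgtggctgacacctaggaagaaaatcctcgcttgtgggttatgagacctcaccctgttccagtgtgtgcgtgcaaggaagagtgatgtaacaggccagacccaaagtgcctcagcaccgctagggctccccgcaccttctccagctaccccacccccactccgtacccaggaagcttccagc

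**Figure D3:**
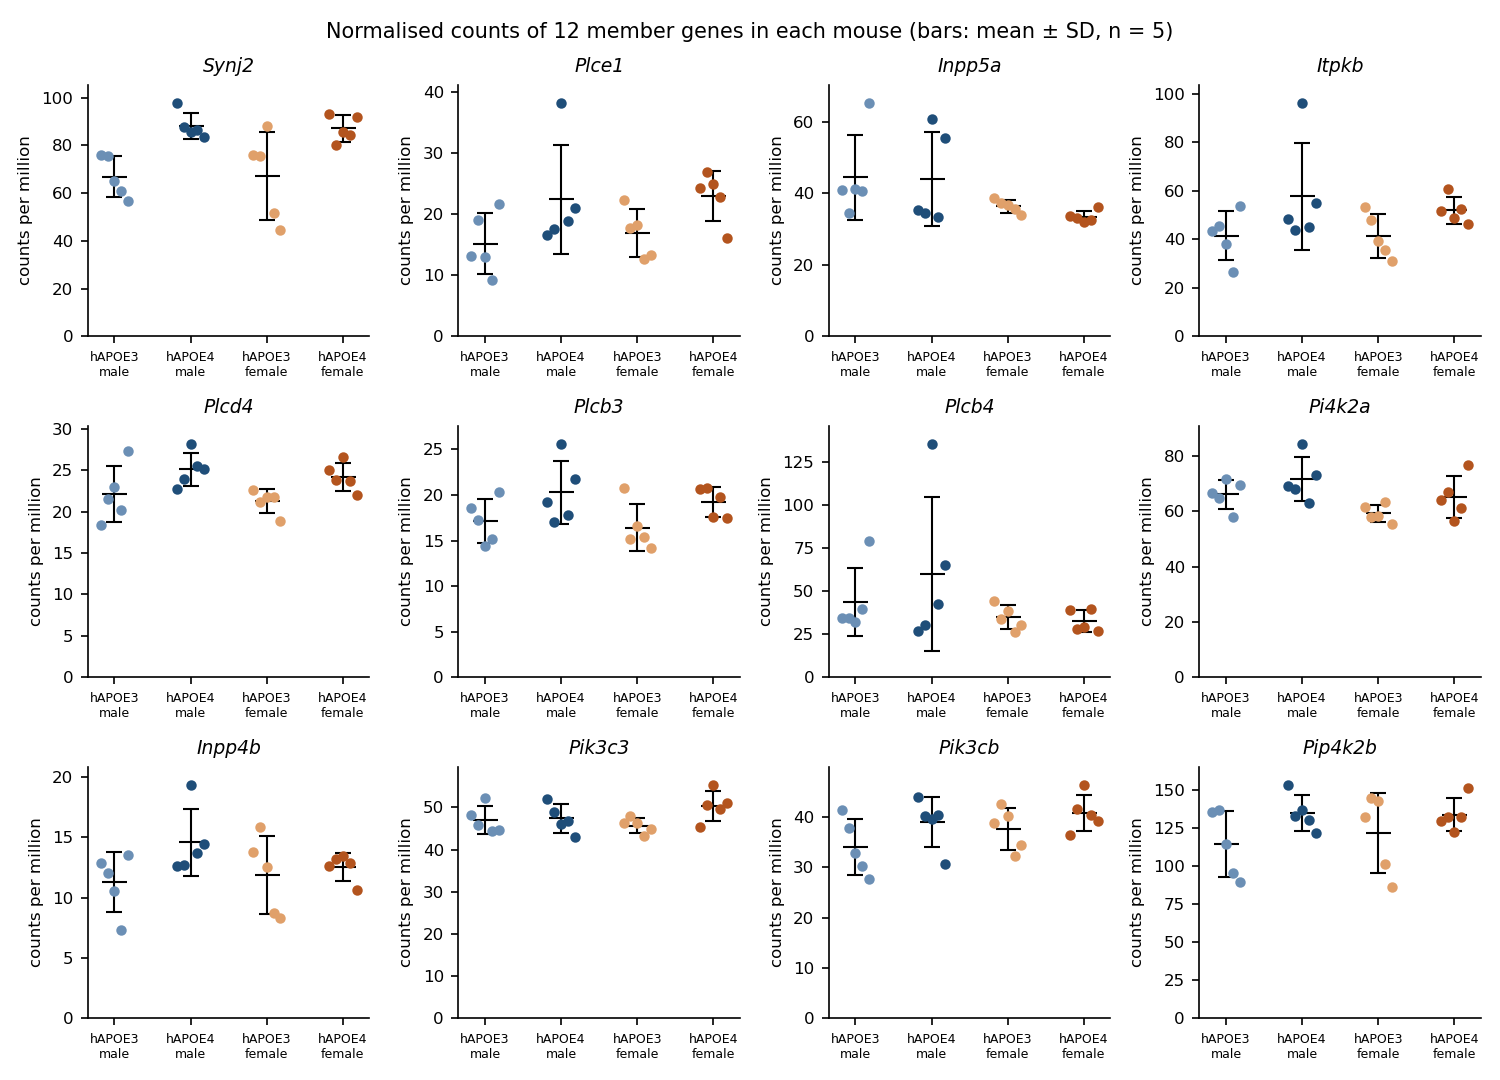
CPM in each mouse for 12 members, those past the threshold and then those with the smallest p in any comparison, with mean ± SD (n = 5) and axes from 0. Synj2 lies at 80.0 to 97.7 in the 10 hAPOE4 mice, and Plcb4 and Inpp5a each have 3 males far above the remaining mice.

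Among the phospholipases C, 8 of 10 were higher in hAPOE4 averaged over the sexes and 0 passed the test, with log2 fold changes from -0.17 (Plcd1) to 0.50 (Plce1). Plce1 encodes the isoform driven by small GTPases of the Ras family. Its level was 13.2, 19.04, 12.9, 9.20 and 21.6 CPM in hAPOE3 males and 16.6, 17.6, 38.1, 18.8 and 20.98 CPM in hAPOE4 males. Females with hAPOE3 had 22.4, 17.8, 18.3, 12.7 and 13.4 CPM and those with hAPOE4 24.3, 26.9, 24.9, 22.7 and 16.2 CPM. Of the 10 hAPOE4 mice 5 were above every hAPOE3 mouse, and male S176, 1 of the 3 with high thalamus markers, was far above the rest. Plce1 had a log2 fold change of 0.50 ± 0.17 (SE) and an adjusted p of 0.120, and the log2 fold change was 0.28 with the mitochondrial share and 0.32 with the astrocyte score as covariates, and 0.29 without the 4 males with high oocyte genes. Plcb3, a Gq-coupled isoform, and Plcd4, a calcium-driven one, had smaller differences and also did not pass. Plcb3 was at 18.6, 17.3, 14.4, 15.2 and 20.3 CPM in hAPOE3 males and 19.2, 16.99, 25.6, 17.9 and 21.7 CPM in hAPOE4 males. The hAPOE3 females had 20.7, 15.2, 16.6, 15.3 and 14.2 CPM and the hAPOE4 females 20.7, 20.8, 17.6, 19.8 and 17.4 CPM. The 6 lowest mice were all hAPOE3, and the log2 fold change was 0.24 ± 0.089 (adjusted p = 0.165), against 0.095 with the mitochondrial share as a covariate and 0.15 without the 5 hAPOE3 mice with high OXPHOS genes. Plcd4 was at 18.4, 21.5, 22.97, 20.2 and 27.3 CPM in hAPOE3 males and 22.7, 23.9, 28.1, 25.5 and 25.2 CPM in hAPOE4 males. Among females the values were 22.6, 21.2, 21.8, 21.8 and 18.9 CPM with hAPOE3 and 25.00, 23.8, 26.6, 23.7 and 21.96 CPM with hAPOE4. The 7 lowest mice were all hAPOE3, with a log2 fold change of 0.19 ± 0.068 (SE) and an adjusted p of 0.151. Exons of Plcb3 and Plcd4 overlap Ppp1r14b and Zfp142 on the opposite strand. Plcd1, the member lowest in hAPOE4, had a log2 fold change of -0.17 with an interval of -0.41 to 0.082. Plcg1, the isoform recruited by receptor tyrosine kinases, varied little, between 82.8 and 116 CPM, with a log2 fold change of 0.045 ± 0.056 (SE) and an adjusted p of 0.718.

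Of the 12 phosphoinositide kinases 10 were higher in hAPOE4 and 0 passed the test, with log2 fold changes from -0.032 (Pip4k2a) to 0.19 (Pip4k2b). Pip4k2b makes phosphatidylinositol bisphosphate from the minor monophosphate. Its level was 136, 136, 115, 95.1 and 89.7 CPM in hAPOE3 males and 153, 133, 136, 129.7 and 122 CPM in hAPOE4 males. Females with hAPOE3 had 132, 144.7, 142, 101 and 86.4 CPM and those with hAPOE4 129, 132, 122, 132 and 151 CPM. The 5 lowest mice, at 86.4 to 115 CPM, were the 5 hAPOE3 mice with high OXPHOS genes. Without them the log2 fold change went from 0.19 to -0.044. Pik3cb, a catalytic subunit of class I phosphoinositide kinase that makes the trisphosphate, was low in the same 5 mice and in hAPOE4 male S178. Pik3cb was at 41.3, 37.8, 32.9, 30.2 and 27.6 CPM in hAPOE3 males and 43.9, 40.3, 39.5, 40.4 and 30.6 CPM in hAPOE4 males. The hAPOE3 females had 38.9, 42.5, 40.3, 32.3 and 34.4 CPM and the hAPOE4 females 36.5, 41.6, 46.3, 40.4 and 39.1 CPM. Its log2 fold change of 0.16 ± 0.081 (adjusted p = 0.318) was -0.010 without the same 5 mice. Pik3c3, the class III enzyme of autophagy and endosomes, had its smallest p in females, at a log2 fold change of 0.14 ± 0.071 (adjusted p = 0.529). Pik3c3 was at 48.1, 45.8, 52.3, 44.4 and 44.6 CPM in hAPOE3 males and 52.1, 49.01, 46.1, 46.7 and 43.01 CPM in hAPOE4 males. Among females the values were 46.3, 47.9, 46.2, 43.2 and 44.9 CPM with hAPOE3 and 45.3, 50.6, 55.3, 49.6 and 50.96 CPM with hAPOE4. The groups overlapped, with 1 hAPOE4 mouse above and 1 below all hAPOE3 mice. The lipid kinases that start the pathway, Pi4ka, Pi4kb and Pi4k2a, had log2 fold changes of 0.046, 0.059 and 0.13, and the kinases of the next step, Pip5k1a, Pip5k1b and Pip5k1c, of 0.010, 0.035 and 0.11.

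Of the 8 phosphoinositide phosphatases 7 were higher in hAPOE4, among them Synj2, and the other 7 did not pass. Synj1 was at 466, 598, 403, 328 and 286 CPM in hAPOE3 males and 635, 588, 400.0, 541 and 369 CPM in hAPOE4 males. In females it was at 485, 539, 576, 367 and 413 CPM with hAPOE3 and 529, 467, 571, 567 and 512 CPM with hAPOE4. It was lowest in the 5 hAPOE3 mice with high OXPHOS genes and in the hAPOE4 males S176 and S178, and had a log2 fold change of 0.22 ± 0.13 (SE) and an adjusted p of 0.386. Inpp4b removes a phosphate from the lipid products of class I kinases and had its smallest p in males. Inpp4b was at 12.9, 12.04, 10.5, 7.32 and 13.6 CPM in hAPOE3 males and 12.7, 12.7, 19.3, 13.7 and 14.5 CPM in hAPOE4 males. Females with hAPOE3 had 13.8, 15.9, 12.6, 8.77 and 8.36 CPM and those with hAPOE4 12.6, 13.2, 13.4, 12.8 and 10.6 CPM. Male S176 was again the highest and the log2 fold change in males was 0.37 ± 0.18 (adjusted p = 0.554). It was 0.24 without the lowest mouse, hAPOE3 male S157, and between 0.15 and 0.22 with the astrocyte, OXPHOS or thalamus and striatum scores as covariates, without the 5 hAPOE3 mice or without the 4 males with high oocyte genes. Inpp5d, which encodes SHIP1 of microglia and other blood-lineage cells, was at 9.87 to 16.7 CPM, with a log2 fold change of 0.15 ± 0.089 (SE) and an adjusted p of 0.392. Inpp4a, Ocrl, Mtmr2 and Inpp5k had log2 fold changes of 0.034, 0.022, 0.073 and -0.054.

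The enzymes of soluble inositol phosphates gave 0 calls in the 9 members. Itpkb, a kinase that converts inositol trisphosphate to the tetrakisphosphate, had the second largest log2 fold change of the set after Plce1. Its level was 43.2, 45.5, 37.97, 26.4 and 53.8 CPM in hAPOE3 males and 48.3, 43.7, 96.1, 45.1 and 55.1 CPM in hAPOE4 males. The hAPOE3 females had 53.1, 47.8, 39.5, 35.5 and 31.2 CPM and the hAPOE4 females 51.8, 60.9, 48.7, 52.5 and 46.2 CPM. The 6 lowest mice were hAPOE3, 3 hAPOE4 mice were above all hAPOE3 mice, and male S176 at 96.1 CPM was far above the rest. The log2 fold change was 0.40 ± 0.15 with an adjusted p of 0.145. It was 0.27 without S176, 0.15 with the mitochondrial share as a covariate, 0.24 with the thalamus and striatum scores, 0.27 under limma voom and 0.26 without the 5 hAPOE3 mice with high OXPHOS genes. Exons of Itpkb overlap Gm5069 on the opposite strand. Itpka, which carries out the same reaction in dendritic spines, had a log2 fold change of 0.10 with an interval of -0.17 to 0.38, and Itpk1, Ipmk and Ippk, which act towards higher inositol phosphates, had 0.11, -0.0012 and -0.061. Among the phosphatases that return inositol, Inpp1 was the steadiest member, at 32.2 to 39.4 CPM over all mice, with an interval of -0.086 to 0.11 for its log2 fold change. Impa1 had 0.034 (-0.084 to 0.15) and Impa2, at only 1.78 to 5.09 CPM, 0.17 (-0.16 to 0.50). In the synthesis steps, Isyna1 had a log2 fold change of 0.14 (-0.17 to 0.46) and Cdipt -0.069 (-0.21 to 0.072).

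Between the sexes, 0 of 41 members passed averaged over the genotypes, against 0.129% of all genes, and 3 (Plcb4, Inpp5a and Pi4k2a) had an unadjusted p under 0.05, all lower in females, against 6.25% of all genes that lay under that value and were lower. In hAPOE3 mice 0 passed and 0 had an unadjusted p under 0.05, against 0.0414% and 5.22% of all genes. In hAPOE4 mice 0 passed, against 0.437%, and 2 (Plcb4 and Inpp5a) had an unadjusted p under 0.05, both lower in females. Of all genes 5.80% lay under that value in either direction, and 751 of 21724 lay under it and were lower. DESeq2 and limma voom called 0 members in each of these. Averaged over the genotypes 17 members were higher and 24 lower in females. Pi4k2a makes phosphatidylinositol monophosphate on endosomes. Its level was 66.5, 64.8, 71.9, 58.1 and 69.4 CPM in hAPOE3 males and 69.4, 68.2, 84.3, 63.2 and 73.1 CPM in hAPOE4 males. Among females the values were 61.5, 57.8, 58.2, 63.5 and 55.3 CPM with hAPOE3 and 63.97, 67.2, 56.4, 61.3 and 76.9 CPM with hAPOE4. Female and male values overlapped, with 3 females below all males and 1 male, S176, above all females, and the log2 fold change was -0.15 ± 0.063 (adjusted p = 0.436), or -0.083 without the 3 males with high thalamus markers.

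The 2 members with the smallest p between the sexes in hAPOE4, Plcb4 and Inpp5a, were highest in 3 males. Plcb4 is the Gq-coupled phospholipase C of thalamus and cerebellum, and Inpp5a removes inositol trisphosphate by cutting it to the bisphosphate. Plcb4 was at 34.6, 34.1, 31.8, 39.9 and 78.7 CPM in hAPOE3 males and 26.7, 30.3, 135, 42.2 and 65.3 CPM in hAPOE4 males. Females with hAPOE3 had 44.3, 33.8, 38.4, 26.4 and 30.5 CPM and those with hAPOE4 38.9, 27.8, 29.1, 39.6 and 26.7 CPM. The 3 highest mice were S176, S158 and S178, the 3 males with high thalamus markers, at 65.3 to 135 CPM against 26.4 to 44.3 CPM in the other 17. Inpp5a was at 41, 34.6, 41.2, 40.8 and 65.3 CPM in hAPOE3 males and 35.4, 34.5, 60.9, 33.5 and 55.6 CPM in hAPOE4 males. The hAPOE3 females had 38.6, 37.3, 36.7, 35.6 and 33.9 CPM and the hAPOE4 females 33.6, 33.01, 32.1, 32.7 and 36.1 CPM. The same 3 males were at 55.6 to 65.3 CPM and the other 17 at 32.1 to 41.2. In hAPOE4 mice the log2 fold change of females against males was -0.89 ± 0.35 for Plcb4 (adjusted p = 0.636), or -0.34 without S176 alone, and -0.39 ± 0.17 for Inpp5a (adjusted p = 0.711). Averaged over the genotypes they were -0.61 ± 0.24 (adjusted p = 0.398) and -0.34 ± 0.12 (adjusted p = 0.320). Without the 3 males the averaged values were -0.015 ± 0.12 and -0.071 ± 0.053, and with the thalamus and striatum scores as covariates -0.022 ± 0.13 and -0.097 ± 0.058. Exons of Inpp5a overlap Nkx6-2 on the opposite strand, which was at 5.21 to 22.2 CPM.

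In all, 5 of 41 members separated these 3 males from the other 17 mice with no overlap, against 6.58% of all genes tested. Besides Plcb4 and Inpp5a, which were above, Plcb1, Pip5k1a and Pip5k1b were below. Plcb1 was at 107 to 127 CPM in the 3 males and 153 to 243 CPM in the rest, Pip5k1a at 51.3 to 54.2 against 56.9 to 77.9, and Pip5k1b at 24.7 to 32.0 against 32.6 to 52.6. The 3 males are of both genotypes and were found by marker genes, so they are no group of the design. Oligodendrocyte markers summed to 6065 to 12619 CPM in them against 3947 to 6014 CPM in the others, neuron markers to 3622 to 4545 against 4505 to 5718, and striatum markers to 187 to 716 against 133 to 256. The part of these in the member values was not tested. The SD of Plcb4 over mice was 0.59 on the log2 scale with the 3 males and 0.25 without them, that of Inpp5a 0.30 and 0.12, and that of Plcb1 0.34 and 0.21.

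The sequences before Plcb4 and Inpp5a are shown because both members were high in the same 3 mice. Each is 250 bases upstream of a RefSeq start on the plus strand in GRCm38.p6, clear of annotated exons: chr2:135764588-135764837 for the second listed start of Plcb4 on chromosome 2, since the window of its first start overlaps an annotated exon, and chr7:139388859-139389108 for the first start of Inpp5a on chromosome 7. Capitals mark matches to the motifs searched.
Plcb4: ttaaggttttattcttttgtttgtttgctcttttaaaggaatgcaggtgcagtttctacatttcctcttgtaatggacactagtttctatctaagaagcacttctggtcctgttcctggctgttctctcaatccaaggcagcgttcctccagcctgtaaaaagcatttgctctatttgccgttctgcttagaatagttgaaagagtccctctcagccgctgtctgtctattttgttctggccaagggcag
Inpp5a: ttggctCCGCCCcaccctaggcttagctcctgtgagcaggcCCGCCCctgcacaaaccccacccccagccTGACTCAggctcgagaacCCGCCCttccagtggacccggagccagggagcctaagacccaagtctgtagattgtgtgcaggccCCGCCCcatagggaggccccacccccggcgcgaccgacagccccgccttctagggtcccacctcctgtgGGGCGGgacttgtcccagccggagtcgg

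The Inpp5a window holds 5 GC boxes, 1 AP-1 site and 14 CG pairs, and ends just before the annotated gene start at 139389109. The Plcb4 window shown holds none of the motifs and 3 CG pairs, and lies inside the gene, which begins at 135659011. At the first listed start of Plcb4, which is not shown, the window does hold a GC box. The 2 windows shown therefore do not compare the gene starts. Of the 41 members 35 had an entry, and over their first listed starts the GC box was in 24 of 35 windows (68.6%), against 32.9% of 27025 genes. The CCAAT box was in 31.4% of member windows against 34.5%, the AP-1 site in 11.4% against 4.43%, the E-box in 8.57% against 6.05%, the TATA box in 5.71% against 13.0% and the cyclic AMP element in 2.86% against 1.62%. The median GC content was 64.4% in members and 52.0% over all genes. The 27025 genes were not limited to those tested, while all members passed the filter on low counts. These shares therefore do not compare like sets. A match describes the letters of the window and is no measured binding site.

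**Figure D4:**
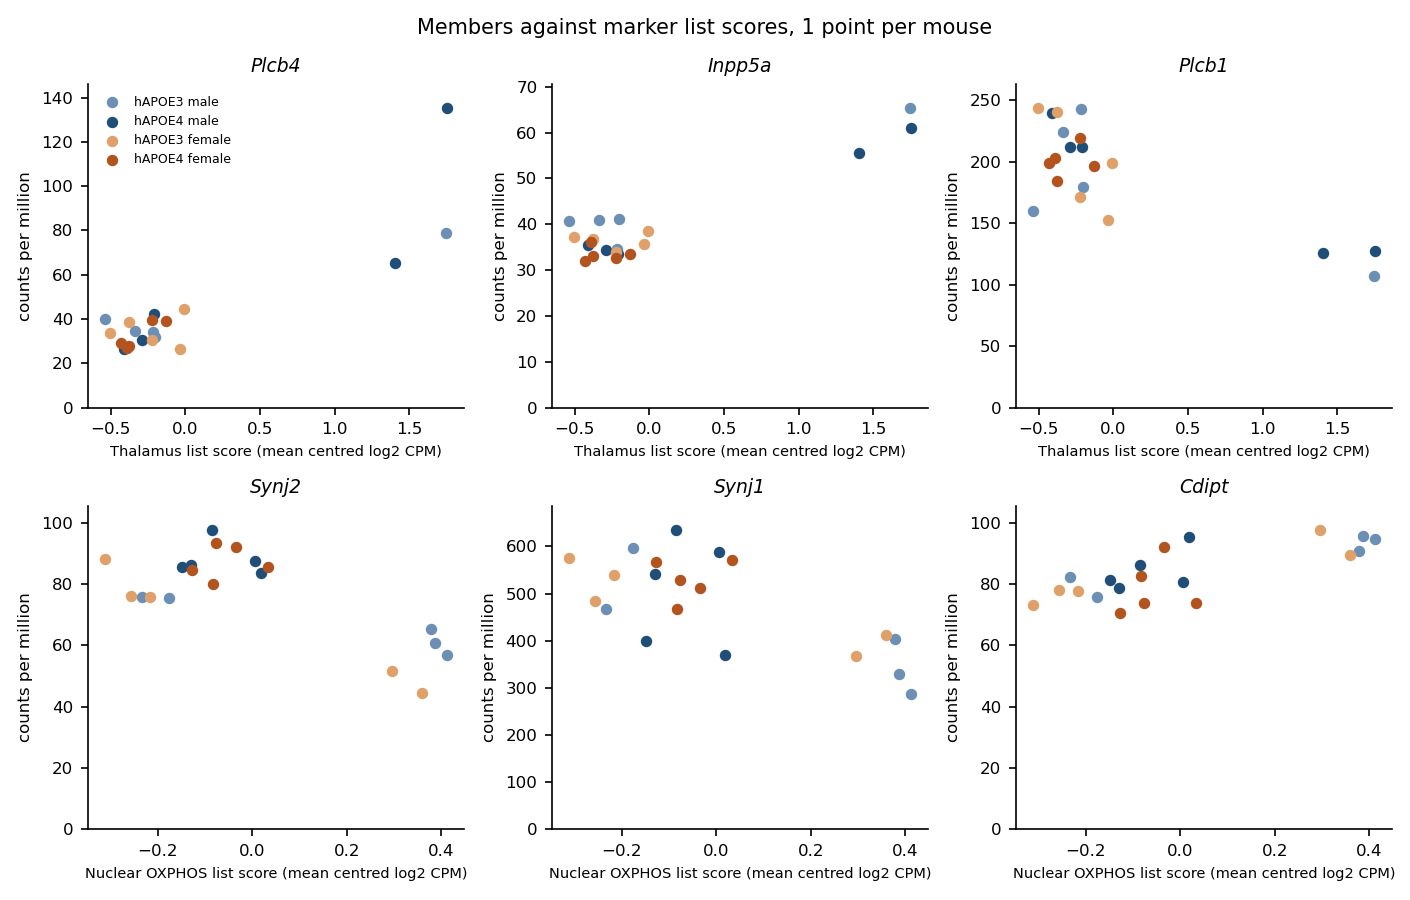
CPM of 6 members (vertical axis, from 0) against the thalamus list score (top) or the nuclear OXPHOS list score (bottom), 1 point per mouse, coloured by group. The 3 males at thalamus scores of 1.40 to 1.75 are high in Plcb4 and Inpp5a and low in Plcb1, and the 5 hAPOE3 mice at OXPHOS scores of 0.30 to 0.41 are low in Synj2 and Synj1 and high in Cdipt.

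A second pattern lay within hAPOE3. Between the 5 hAPOE3 mice with high OXPHOS genes and the other 5, 11 of 41 members did not overlap, against 21.5% of all genes tested. Of these 10 were lower in the first 5 (Plcb1, Pip5k1a, Pip4k2b, Pik3ca, Pik3cb, Pik3c2a, Inpp4a, Synj1, Synj2 and Ipmk) and only Cdipt was higher, where 10.7% of all genes were lower without overlap. Synj1 was at 286 to 413 CPM against 466 to 598, Pik3c2a, a class II kinase of endocytosis, at 26.8 to 37.3 against 41.9 to 49.8, and Cdipt at 89.3 to 97.7 against 73.3 to 82.4. Of these 11, only Plcb1 and Pip5k1a also separated the 3 males. The split is not a group of the labels and covers both sexes, and the astrocyte list was low in the same 5 mice, at 2159 to 2975 CPM summed against 3785 to 4520. The part of either in the member values was not tested.

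**Figure D5:**
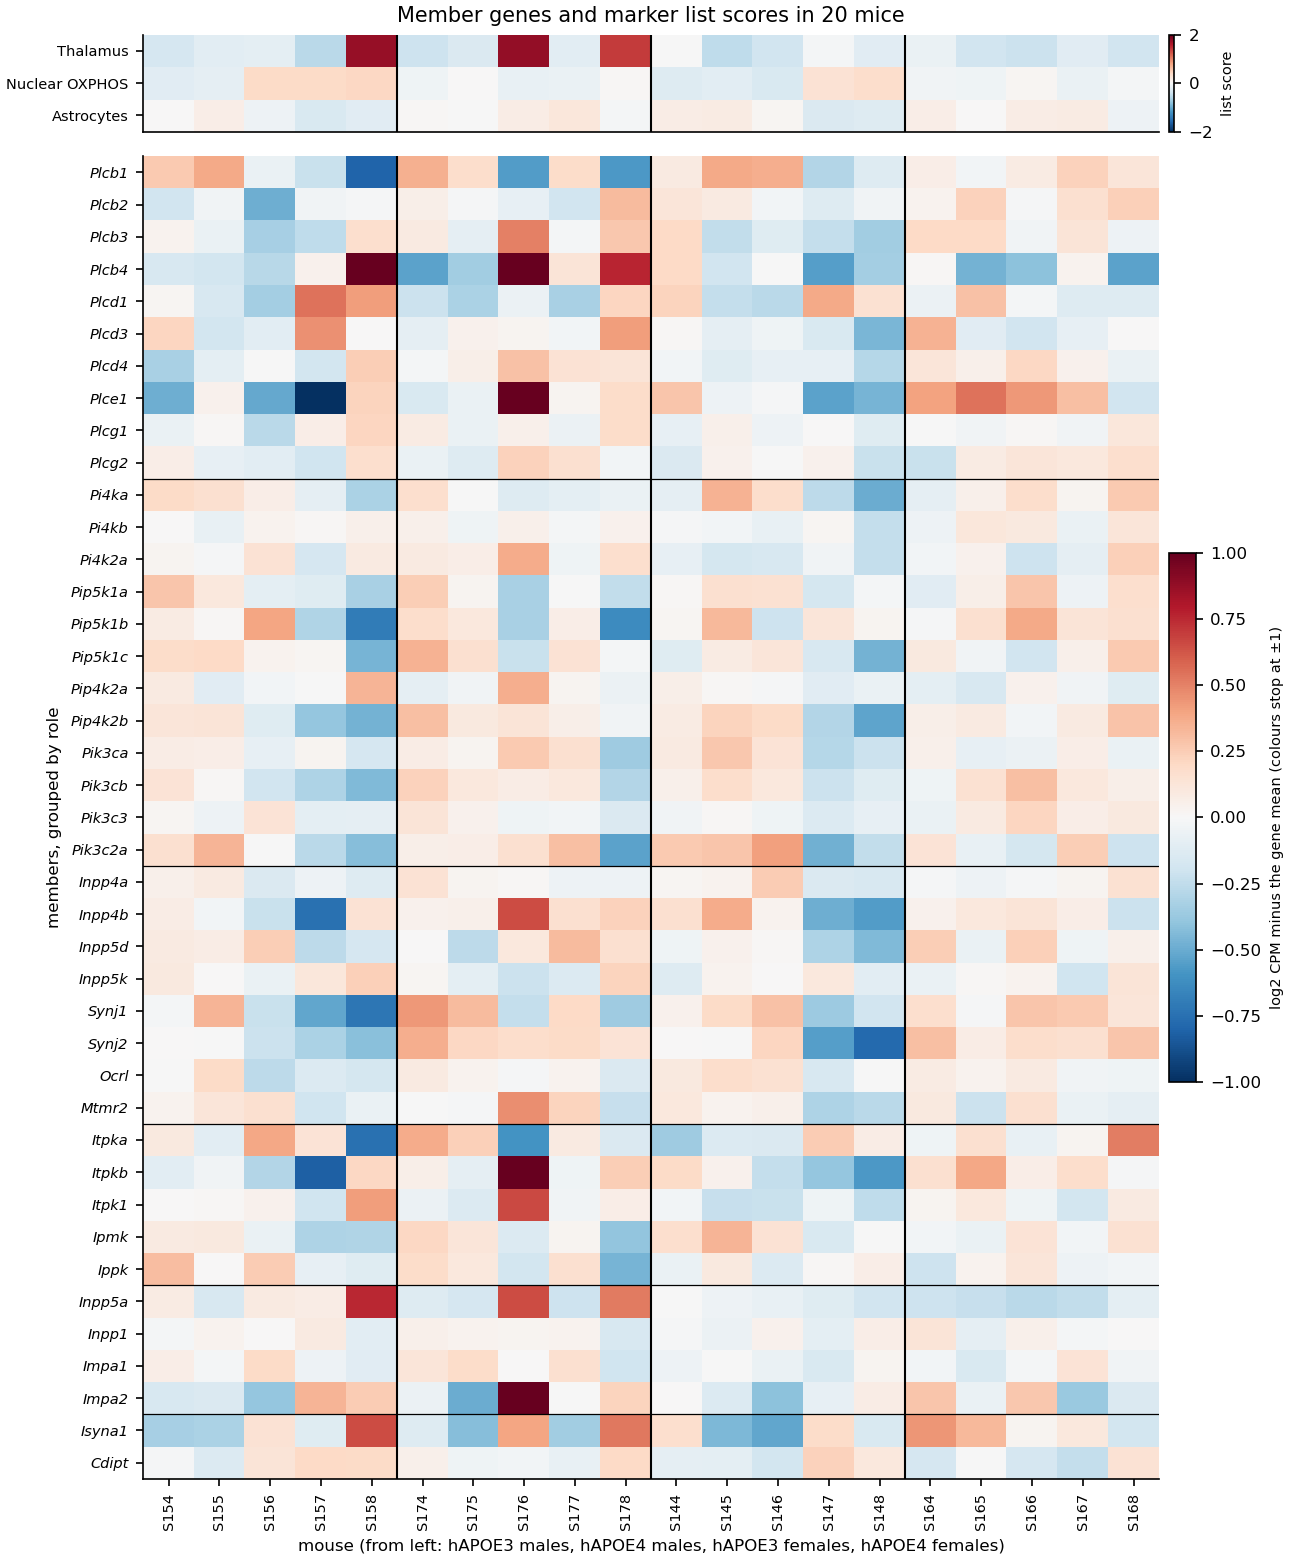
Log2 CPM minus the gene mean for the 41 members (rows, grouped by role) in the 20 mice (columns, by group), with colours that stop at ±1, and above them the scores of the thalamus, nuclear OXPHOS and astrocyte lists. S158, S176 and S178 stand out in Plcb4, Inpp5a and Plcb1, and S147, S148, S157 and S158 in Synj1 and Synj2.

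Differences between the 4 groups held a median of 16.1% of a member's variance in log2 CPM over the 20 mice, near the 17.6% over all genes, and over 50% in 0 members. These shares are not corrected for fitting 4 means, which take up part of the variance even where the groups do not differ. So the median cannot be read as variance due to allele or sex. The highest share was 48.5%, for Synj2, followed by Pi4k2a at 38.9%, Plcd4 at 37.8%, Plce1 at 34.0% and Plcb2 at 33.6%. The lowest was 1.23%, for Pik3c2a. The members lie on 15 chromosomes. Inpp5a, Pik3c2a and Cdipt are on chromosome 7, which also carries Apoe, at 96.6 to 119.7 Mb from it. Their log2 fold changes between hAPOE4 and hAPOE3 were -0.070, -0.018 and -0.069.

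The rest of the pathway was read from 7 lists with 99 genes, of which 96 were in the table and tested: other genes of the phospholipase C family, lipid kinases, lipid phosphatases, inositol phosphate enzymes, synthesis and transport, Gq-coupled receptors with their G proteins, and the targets downstream of phospholipase C. In none of the 7 comparisons did any of the 96 pass the edgeR test in either direction. Averaged over the sexes, 15 had an unadjusted p under 0.05 between hAPOE4 and hAPOE3, all higher in hAPOE4. Among them were 4 of the 7 other genes of the phospholipase C family (Plch1, Plch2, Plcl1 and Plcxd3). Of all genes 17.9% lay under that value, and 8.24% lay under it and were higher. In some of the 15, the 5 hAPOE3 mice with high OXPHOS genes lay wholly below the other 5 hAPOE3 mice. These were Adra1a, Dgkg, Dgki, Itpr2, Mtmr3, Mtmr4, Pik3r4 and Plcxd3, where 10.7% of all genes were lower without overlap. The rest of the 15 overlapped, and the part of this split in the differences was not tested. In the other comparisons the number at an unadjusted p under 0.05 was 5 in males and 5 in females, all higher in hAPOE4, and 0 for the interaction. Of all genes 9.06%, 10.1% and 2.54% lay under that value in either direction. In males 978 and in females 776 of 21724 genes lay under it and were higher. Between the sexes the number was 1 higher and 3 lower in females of hAPOE3, against 5.22% of all genes in either direction, 0 and 4 in hAPOE4, against 5.80%, and 1 and 8 averaged over the genotypes, where 6.25% of all genes were lower. DESeq2 called 2 of the 96 between the alleles averaged over the sexes and limma voom 0, and both called 0 in the other 6 comparisons. The 2 were Nudt3, a phosphatase of inositol pyrophosphates, and Ip6k1, a kinase that makes them, named after their values were seen. In edgeR, Nudt3 had a log2 fold change of 0.25 ± 0.077 and the smallest adjusted p of the lists, 0.0858, and Ip6k1 had 0.15 ± 0.049 (adjusted p = 0.0951). Prkcd, the diacylglycerol-activated kinase that is also on the thalamus list, had the largest sex difference of the downstream list, at -1.53 ± 0.44 (adjusted p = 0.245), and was at 137 to 228 CPM in the 3 males with high thalamus markers and 16.6 to 50.7 CPM in the others.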

How the data were processed

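Hippocampal RNA of 20 mice was sequenced from polyA-selected libraries. The authors quantified reads with Salmon 0.91 against Ensembl transcripts and deposited estimated counts per gene. The table held whole numbers, and they were used here without rounding. The authors also deposited counts divided by size factors (a signal scale), used here only as an alternative. Whether counting used strand is not given in the sources used here. No column of values was left out (0 columns).

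Low genes were removed with filterByExpr, leaving 21724 of 33119, and counts were scaled by TMM. Each of 7 contrasts of the 4 groups was tested in 1 fit over all 20 mice with the edgeR quasi-likelihood test (edgeR 4.0.16, limma 3.58.1, R 4.3.3), with p-values adjusted by Benjamini-Hochberg over all genes tested at a threshold of 0.05. DESeq2 1.42.0, limma voom, other filters and scalings, covariates and leaving out each mouse were alternatives, and leaving out the 3 males, the 5 hAPOE3 mice or the 4 hAPOE4 males with high oocyte genes and the OXPHOS and astrocyte covariates were added after the data were seen. Totals per mouse were 35778879 to 52520279 counts, and of 190 pairs of libraries none agreed within sampling noise (lowest chi-square per degree of freedom 9.64). The fits were tested on simulated data. Levels per kb use GENCODE M21, and promoters come from RefSeq on GRCm38.p6.

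Values per mouse are given for each member past the threshold in any contrast and then for those with the smallest unadjusted p until 12 were reached. Synj1 and other members given beside them were chosen after their values were seen. The members and lists were chosen with earlier results of these data known.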

Additional observations from a re-analysis of the deposited data

Results flagged for a closer look

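Within each group of 5 mice the highest and the lowest value of each member were compared with the nearest of the others by Dixon's ratio, against a critical value of 0.71. Over the 41 members in 4 groups 12 values passed, in 11 members, and chance passes about 1 in 20. Mouse S176, an hAPOE4 male with high thalamus markers, held 5 of them as the highest of its group: Plce1 at 38.14 CPM (next 20.98), Pip4k2a at 125.2 (next 99.62), Inpp4b at 19.33 (next 14.45), Itpkb at 96.12 (next 55.07) and Itpk1 at 83.08 CPM (next 55.22). The hAPOE3 male S158 held 2, Plcb4 at 78.69 CPM (next 39.86) and Inpp5a at 65.27 CPM (next 41.19). The hAPOE4 male S178 was high for Plcd3 at 13.96 CPM (next 10.80) and low for Inpp1 at 32.24 CPM (next 36.73). So 9 of the 12 lay in the 3 males with high thalamus markers. The other 3 were in hAPOE4 females: Plcd1 was high in S165 at 12.80 CPM (next 10.31), Plcg2 was low in S164 at 5.816 CPM (next 7.197), and Inpp4b was low in S168 at 10.61 CPM (next 12.65).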

How the results depend on the processing

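Of the 7 comparisons, the count of members called changed in 2. Averaged over the sexes, the 1 call between hAPOE4 and hAPOE3 became 0 under limma voom, with the oocyte, thalamus and striatum, or astrocyte scores or the mitochondrial share as covariates, and without the 3 males, the 5 hAPOE3 mice or the 4 hAPOE4 males with high oocyte genes, and leaving out 1 mouse at a time gave 0 to 1 calls. Without hAPOE3 male replicate 5 the 1 call was Plcd4 (log2 fold change 0.23, edgeR adjusted p = 0.0498). In females the 0 calls became 1, Synj2, with the OXPHOS score as a covariate. Synj2 kept its direction in all 34 alternatives and its call in 12, DESeq2 among them. Its log2 fold change was 0.33 to 0.45 with 1 mouse left out and 0.17 to 0.51 in the others. The direction turned for Plcb4 (females against males in hAPOE4) at 0.0023 with thalamus and striatum covariates and 0.28 without the 4 hAPOE4 males, for Pik3cb at -0.010 and Pip4k2b at -0.044 without the 5 hAPOE3 mice, and for Pip4k2b at -0.030 with the mitochondrial share. The cause was not tested. No paired analysis was possible because the labels give mouse names and no replicate numbers: the numbers 1 to 5 follow accession order and nothing ties them to a litter or batch. With 5 mice a group, the median 95% half-width was 0.263 within a sex and 0.186 averaged (log2).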
